A study of Homo sapiens with 18 samples.

Results

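Metallothioneins are small, cysteine-rich proteins that hold zinc, copper and cadmium, and this account follows 6 of their genes (MT1E, MT1F, MT1G, MT1H, MT1X and MT2A) with the zinc sensor gene MTF1 and the zinc exporter gene SLC30A1. These 8 genes of the 35616 in the expression table were chosen by name, with their levels in the 6 groups and the comparisons between groups already seen, and all 8 were in it. RNA was sequenced from HUDEP-2, an immortalized human erythroid progenitor line from umbilical cord blood, with the HBB gene knocked out (HBBko) and unedited (WT). Each line gave 3 libraries undifferentiated, 3 at 48 h and 3 at 5 d of differentiation, which makes 6 groups and 18 libraries. The labels name neither the number of HBBko clones nor the differentiation medium, and they do not say whether the triplicates came from separate cultures, so p-values measure only the spread between these libraries, which may be technical.

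Metallothionein genes are turned on by metals through MTF1, a zinc finger transcription factor that binds zinc and then attaches to metal response elements in DNA. MTF1 also drives SLC30A1, which encodes ZnT1, the exporter that moves zinc out of the cell across the plasma membrane. Glucocorticoids and stress are further known inducers of metallothioneins, and differentiating red cells take up zinc for abundant zinc enzymes such as carbonic anhydrases.

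Values are TPM (transcript abundance corrected for transcript length) that were also scaled between libraries before deposit, called scaled TPM here, so levels may be compared between genes. The sums per library ran from 783213 to 1508342. How many reads were sequenced is not known from the files used here. HBB, the targeted gene, was lower in every HBBko library than in any WT library of its stage, with 4598 to 4983 scaled TPM in undifferentiated HBBko cells against 12450 to 22380 in undifferentiated WT cells. Summed erythroid markers lay at 10020 scaled TPM or above in all undifferentiated HBBko libraries and at 8111 or above in all undifferentiated WT libraries. Summed myeloid markers stayed at or below 1.28 scaled TPM in every library, and no myeloid, lymphoid or stromal marker passed the filter on low values. Replicate 3 of undifferentiated WT stood apart from its group, and values at that stage are given with and without it. In bulk RNA, fewer cells of a type and less RNA per cell cannot be told apart.

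The 6 metallothionein genes lie within 75.6 kb on chromosome 16 (GRCh38.p14, 56608584 to 56684196) in the order MT2A, MT1E, MT1F, MT1G, MT1H and MT1X. MTF1 (37809574 to 37859592) and SLC30A1 (211571568 to 211579161) lie on chromosome 1 of the same build. The coding sequences of MT1X, MT1G and MT2A from GENCODE v29 are printed because each of these genes was the largest contributor to the metallothionein sum at 1 of the 3 stages. Capitals mark the cysteine codons, TGC and TGT, whose side chains hold the metal.
MT1X: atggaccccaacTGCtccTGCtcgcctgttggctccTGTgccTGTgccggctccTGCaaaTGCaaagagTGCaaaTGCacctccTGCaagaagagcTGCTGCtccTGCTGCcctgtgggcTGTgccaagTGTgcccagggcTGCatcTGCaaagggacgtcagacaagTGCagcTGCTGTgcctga
MT1G: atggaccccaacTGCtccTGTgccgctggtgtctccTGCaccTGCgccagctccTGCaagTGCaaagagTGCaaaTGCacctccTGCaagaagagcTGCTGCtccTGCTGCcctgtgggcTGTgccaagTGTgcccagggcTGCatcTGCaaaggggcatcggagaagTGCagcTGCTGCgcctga
MT2A: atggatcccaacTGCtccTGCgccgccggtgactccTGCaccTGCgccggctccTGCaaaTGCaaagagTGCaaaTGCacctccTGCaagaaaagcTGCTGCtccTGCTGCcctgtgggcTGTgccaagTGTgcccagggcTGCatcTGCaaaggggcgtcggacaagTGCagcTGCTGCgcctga
Each of the 6 genes had 2 to 4 annotated coding transcripts, and the one with a coding length nearest to 186 bases was taken. The common length thus follows in part from that choice. All 6 coding sequences taken had 186 bases with 61 codons before the stop, of which 20 were cysteine codons. Identity between pairs ran from 88.7% for MT1F and MT1X to 95.2% for MT1G and MT2A. In the annotated transcripts, the share of 31-base words also in another metallothionein gene was 27.7% for MT1H, 23.3% for MT1G and 15.6% for MT1E. It was 5.3% for MT1X, 4.5% for MT2A and 3.2% for MT1F, with MT2P1 and MT1IP not counted as metallothionein genes. The share found in any other gene was 19.8% for MT1X and 7.2% for MT2A, and no larger than before for the rest. Reads from the shared stretches can be split between genes by the counting, so single metallothionein values are uncertain and their sum is given throughout. SLC30A1 shared none of its 31-base words with another gene.

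The 250 bases upstream of the annotated start, from RefSeq (GRCh38.p14), were found for 5 of the 8 genes, MT2A, MT1X, MT1H, SLC30A1 and MTF1. They are shown for the first 4 because the metal response element cores in them differ in number. Capitals mark the core, TGCACNC or TGCGCNC on either strand.
MT2A, chr16:56608334-56608583, plus strand: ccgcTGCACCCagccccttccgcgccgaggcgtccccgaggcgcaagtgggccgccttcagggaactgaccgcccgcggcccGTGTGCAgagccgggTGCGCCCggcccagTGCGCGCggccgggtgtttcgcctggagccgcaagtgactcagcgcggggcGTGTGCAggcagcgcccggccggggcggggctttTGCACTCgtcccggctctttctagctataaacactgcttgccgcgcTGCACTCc
MT1X, chr16:56682220-56682469, plus strand: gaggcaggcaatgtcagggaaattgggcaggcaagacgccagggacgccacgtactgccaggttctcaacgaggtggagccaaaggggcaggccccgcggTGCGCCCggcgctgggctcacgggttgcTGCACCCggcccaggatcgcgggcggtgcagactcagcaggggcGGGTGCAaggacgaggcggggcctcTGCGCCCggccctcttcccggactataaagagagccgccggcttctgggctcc
MT1H, chr16:56669564-56669813, plus strand: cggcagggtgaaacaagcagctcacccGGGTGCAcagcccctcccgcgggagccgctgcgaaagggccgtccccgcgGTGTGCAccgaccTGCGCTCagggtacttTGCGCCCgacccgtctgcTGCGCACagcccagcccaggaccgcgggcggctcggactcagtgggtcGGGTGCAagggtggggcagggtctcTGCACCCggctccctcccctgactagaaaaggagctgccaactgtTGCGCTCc
SLC30A1, chr1:211579162-211579411, minus strand: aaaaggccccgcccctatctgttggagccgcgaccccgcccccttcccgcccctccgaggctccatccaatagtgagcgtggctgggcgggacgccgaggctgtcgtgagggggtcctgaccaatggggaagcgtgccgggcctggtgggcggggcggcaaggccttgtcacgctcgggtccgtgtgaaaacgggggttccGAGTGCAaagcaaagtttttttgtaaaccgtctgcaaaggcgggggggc
MT1H held 8 such cores, MT2A 7, MT1X 4 and SLC30A1 1, with no overlaps among them, and none was in the MTF1 window. At least 1 core was in 24.8% of all 34943 promoters of the same length, at least 4 were in 0.369%, at least 7 in 0.0315% and at least 8 in 0.0172%. A match describes the letters only and does not show binding.

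**Figure D1:**
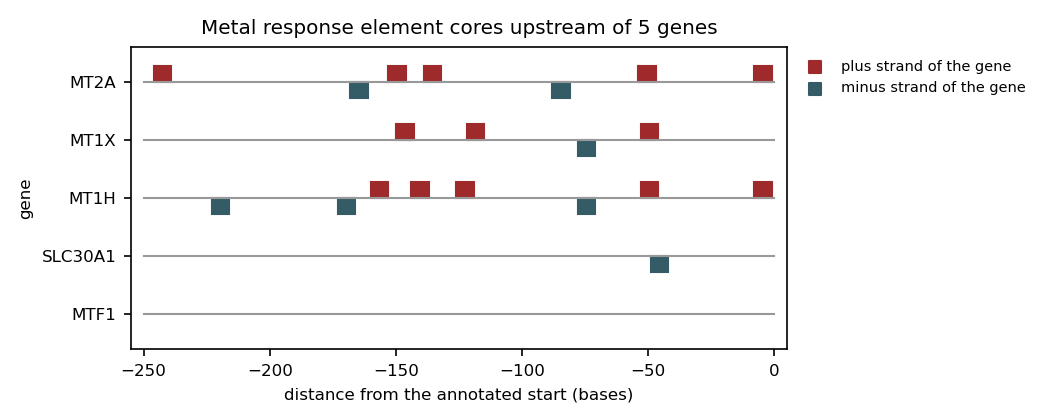
Positions of metal response element cores in the 250 bases upstream of the annotated start of 5 genes, with the distance from the start in bases on the x axis. Cores on the plus strand of the gene sit above each line and those on the minus strand under it, and MT1H holds 8, MT2A 7, MT1X 4, SLC30A1 1 and MTF1 none.

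Summed over the 6 genes, metallothionein transcripts were low in undifferentiated cells, high at 48 h and low again at 5 d in both lines. HBBko cells had less of them than WT cells before differentiation and at 5 d, and more at 48 h. Undifferentiated HBBko libraries had a sum of 15.7, 5.18 and 10.9 scaled TPM, against 23.4, 19.2 and 70.1 in WT. At 48 h the sums were 292, 264 and 277 scaled TPM in HBBko and 249, 219.5 and 192 in WT. At 5 d they were 9.63, 10.7 and 6.88 scaled TPM in HBBko and 37.6, 37.0 and 52.9 in WT. The HBBko and WT libraries did not overlap at any of the 3 stages.

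The mean sum of HBBko over that of WT was 0.282 in undifferentiated cells, 1.26 at 48 h and 0.214 at 5 d. Without WT replicate 3, which held 3.29 times the mean of the other WT libraries, the ratio in undifferentiated cells was 0.497, and the lines still did not overlap. The 48 h mean was 26.2 times the undifferentiated mean in HBBko and 5.86 times in WT, or 10.3 times in WT without replicate 3 of undifferentiated WT. The 48 h mean was 30.6 times the 5 d mean in HBBko and 5.18 times in WT. In order of mean, the groups were HBBko at 5 d (9.07 ± 1.97, SD, n = 3 here and below), undifferentiated HBBko (10.6 ± 5.28), undifferentiated WT (37.6 ± 28.3), WT at 5 d (42.5 ± 8.98), WT at 48 h (220.1 ± 28.8) and HBBko at 48 h (278 ± 14.1). HBBko at 5 d overlapped undifferentiated HBBko, and undifferentiated WT overlapped WT at 5 d. With every metallothionein gene and pseudogene of the table added, the mean sums were 13.0 ± 6.02 scaled TPM in undifferentiated HBBko and 38.8 ± 28.2 in undifferentiated WT, and those libraries then overlapped. Earlier results of these libraries were known when the genes were listed, so the values are a description and carry no test.

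Markers of other programmes differed beside these values. In undifferentiated HBBko cells 8 of 11 tested erythroid markers were lower and none higher than in WT (limma, adjusted p under 0.05). At 48 h 3 were lower and none higher, and at 5 d 2 were lower and 2 higher. Of all tested genes, 22.3% were lower and 20.9% higher in undifferentiated cells. At 48 h 9.21% of all were lower and 9.52% higher, and at 5 d 24.8% and 26.5%. Without replicate 3 of undifferentiated WT, 7 erythroid markers were lower and 2 higher in undifferentiated cells. Summed erythroid markers were at 10510 ± 631 scaled TPM in undifferentiated HBBko and 10280 ± 3284 in undifferentiated WT. Replicates 1, 2 and 3 of undifferentiated WT were at 8673, 8111 and 14060. At 5 d the erythroid sum was at 348000 ± 7311 in HBBko and 323700 ± 7194 in WT. Summed megakaryocyte markers were at 1.84 ± 0.186 scaled TPM in undifferentiated HBBko and 4.42 ± 0.241 in undifferentiated WT. At 5 d their sum was at 0.724 ± 0.154 in HBBko and 0.441 ± 0.0979 in WT. Only 1 of these 6 markers, ITGA2B, passed the filter. It was lower in HBBko in undifferentiated cells and at 48 h, and not called at 5 d. Summed mast cell, basophil and eosinophil markers were at 828 ± 41.3 scaled TPM in undifferentiated HBBko and 601 ± 58.2 in undifferentiated WT. At 5 d their sum was at 35.2 ± 5.99 in HBBko and 23.1 ± 0.915 in WT. Of 5 tested markers of this list, 2 were higher and 1 lower in undifferentiated HBBko cells. At 48 h 2 were higher and none lower, and at 5 d 1 was higher and none lower. The part of all these markers in the metallothionein and SLC30A1 values was not tested.

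**Figure D2:**
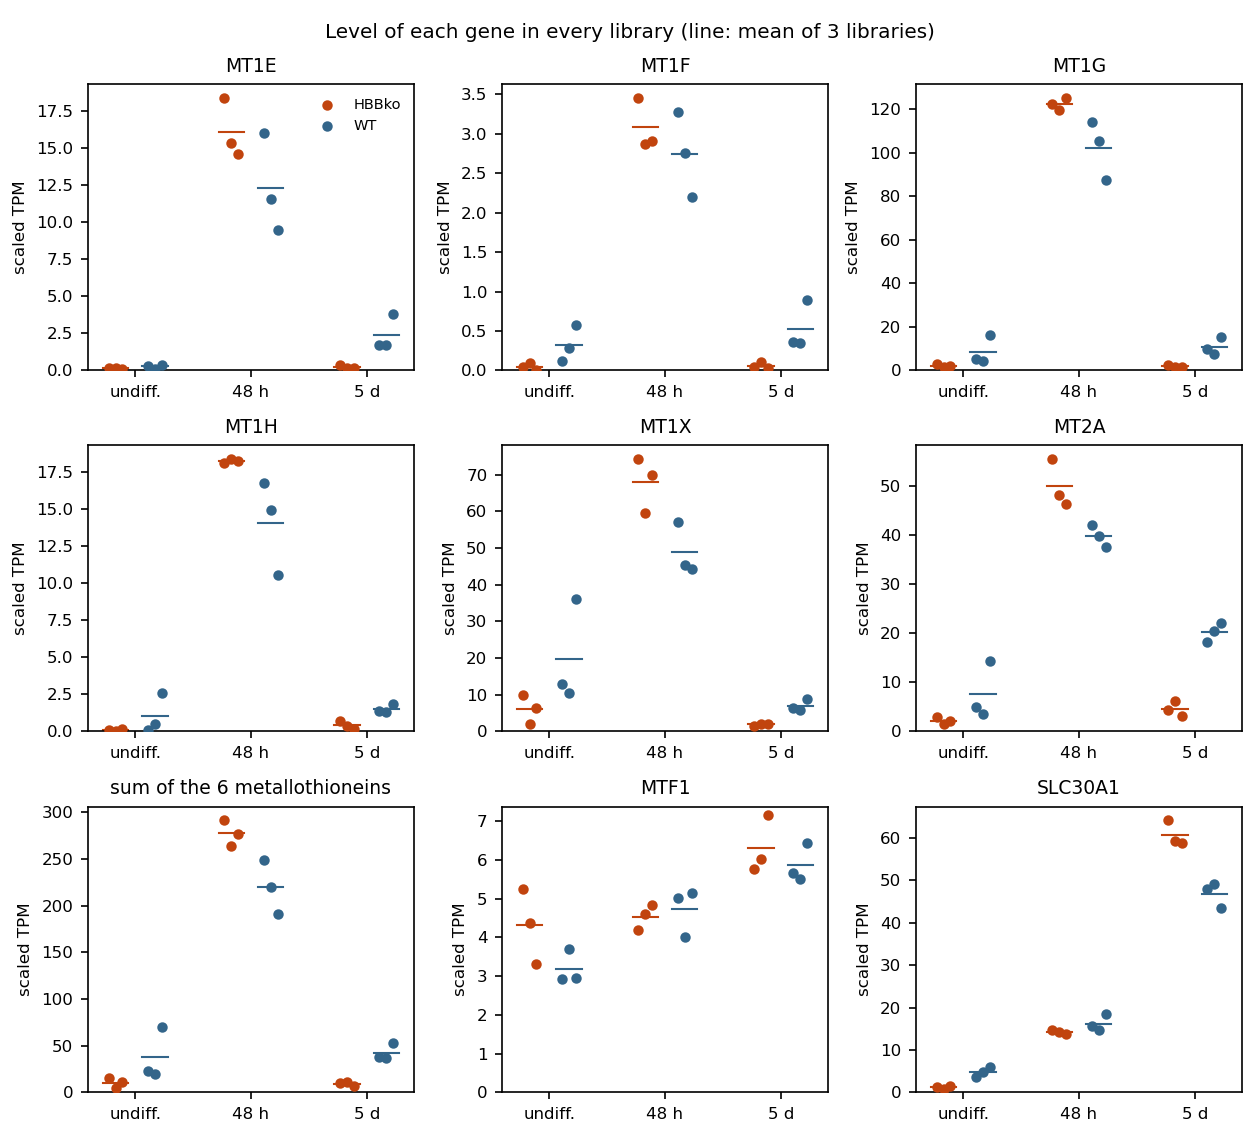
Level in scaled TPM (y axis, linear from 0, own range per panel) of the 6 metallothioneins, their sum, MTF1 and SLC30A1 in each of the 18 libraries, by stage on the x axis, with HBBko in red, WT in blue and the mean of 3 libraries as a line. The metallothionein panels peak at 48 h, where their sum lies between 192 and 292, while SLC30A1 is highest at 5 d.

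The gene with the largest mean share of the sum was the same in both lines at each stage and a different one at each of the 3 stages. MT1X was the largest part in undifferentiated cells, with 54.6% ± 11.7 in HBBko and 53.6% ± 2.01 in WT. MT1G was the largest at 48 h, with 44.1% ± 1.96 in HBBko and 46.5% ± 1.26 in WT. MT2A was the largest at 5 d, with 50.2% ± 7.35 in HBBko and 48.5% ± 6.78 in WT. MT1E, MT1F and MT1H had mean shares of 6.59% or less in every group.

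**Figure D3:**
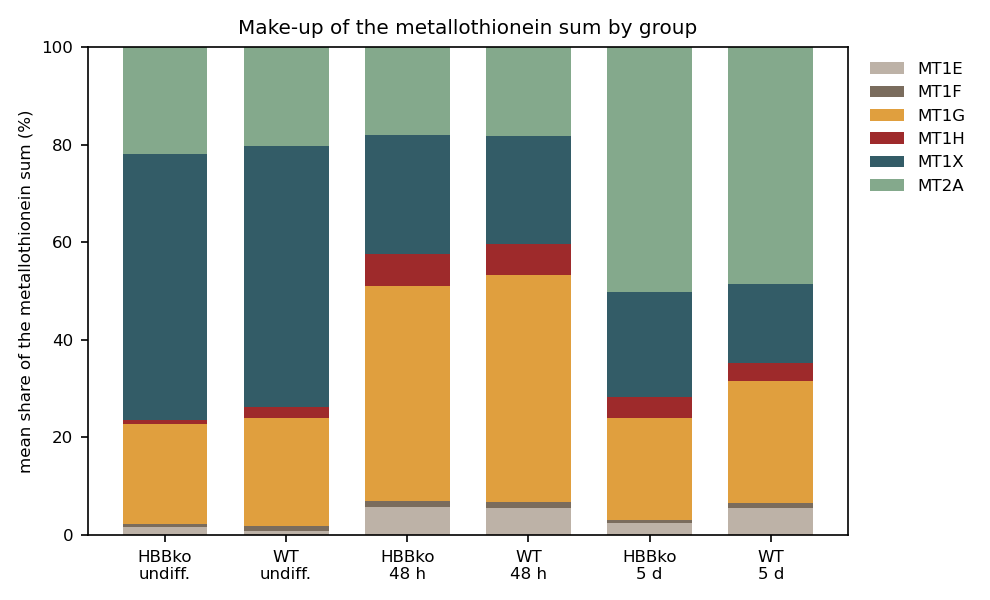
Mean share of each of the 6 genes in the metallothionein sum (y axis, percent) for HBBko and WT at each stage. MT1X takes 54.6% and 53.6% of the bars of undifferentiated HBBko and WT, MT1G 44.1% and 46.5% at 48 h, and MT2A 50.2% and 48.5% at 5 d.

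MT1G, one of the type 1 metallothioneins, had the widest span of the 6 genes in scaled TPM, though not as a ratio. It was at 2.72, 1.34 and 1.98 scaled TPM in undifferentiated HBBko libraries and 5.08, 4.15 and 16.3 in undifferentiated WT libraries. At 48 h it was at 122, 119.7 and 125 scaled TPM in HBBko and 114, 105 and 87.6 in WT. At 5 d it was at 2.55, 1.65 and 1.42 scaled TPM in HBBko and 9.70, 7.44 and 15.4 in WT. HBBko lay below WT in undifferentiated cells and at 5 d and above it at 48 h, with no overlap at any stage. The mean ratio of HBBko to WT in undifferentiated cells was 0.237, and 0.437 without WT replicate 3. Ranked by mean level among the 12005 tested genes, MT1G was number 856 in HBBko and 1082 in WT at 48 h, against 9433 in HBBko and 5981 in WT at 5 d. Its log2 fold change of HBBko over WT, on the log2(scaled TPM + 1) scale of all fold changes here and with the standard error of the fit, was -1.46 ± 0.33 in undifferentiated cells, 0.26 ± 0.33 at 48 h and -2.01 ± 0.33 at 5 d.

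MT1X, another type 1 gene, was at 9.86, 2.13 and 6.52 scaled TPM in undifferentiated HBBko libraries and 12.8, 10.5 and 36.0 in undifferentiated WT libraries. At 48 h it was at 74.3, 59.4 and 70.0 scaled TPM in HBBko and 57.2, 45.3 and 44.3 in WT. At 5 d it was at 1.61, 2.16 and 1.92 scaled TPM in HBBko and 6.28, 5.77 and 8.81 in WT. The lines did not overlap at any stage, and HBBko was the higher one at 48 h only. Undifferentiated WT replicate 3 held 3.08 times the mean of the other WT libraries, and the mean ratio of HBBko to WT was 0.312 with it and 0.529 without it. The log2 difference of MT1X between 48 h and undifferentiated cells was 3.43 ± 0.39 in HBBko and 1.46 ± 0.39 in WT, against 5.38 ± 0.33 in HBBko and 3.66 ± 0.33 in WT for MT1G.

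MT2A, the type 2 gene expressed in most tissues, was at 2.83, 1.47 and 2.10 scaled TPM in undifferentiated HBBko libraries and 5.03, 3.61 and 14.3 in undifferentiated WT libraries. At 48 h it was at 55.5, 48.2 and 46.3 scaled TPM in HBBko and 41.9, 39.8 and 37.5 in WT. At 5 d it was at 4.36, 6.28 and 3.21 scaled TPM in HBBko and 18.2, 20.5 and 22.1 in WT. Again the lines did not overlap, with HBBko above WT at 48 h and below it at the other stages. The mean ratio of HBBko to WT in undifferentiated cells was 0.279, and 0.494 without WT replicate 3. The 5 d mean of MT2A over its 48 h mean was 0.0923 in HBBko and 0.509 in WT, against 0.0153 in HBBko and 0.106 in WT for MT1G, and 0.0279 in HBBko and 0.142 in WT for MT1X.

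MT1E, MT1F and MT1H had their highest levels at 48 h. At 48 h MT1H was at 18.1, 18.4 and 18.3 scaled TPM in HBBko and 16.8, 14.9 and 10.6 in WT. MT1E was at 18.4, 15.4 and 14.6 scaled TPM in HBBko and 16.02, 11.5 and 9.46 in WT at that stage, and the lines overlapped. MT1F reached 3.45, 2.87 and 2.91 scaled TPM in HBBko and 3.28, 2.76 and 2.19 in WT, also with overlap, and it passed the filter of 1 scaled TPM in 3 libraries through 48 h alone. At 5 d these genes were lower in HBBko than in WT, at low levels. MT1F was at 0.0496, 0.101 and 0.0350 scaled TPM in HBBko and 0.357, 0.349 and 0.887 in WT, all under 1. MT1E was then at 0.386, 0.137 and 0.136 scaled TPM in HBBko and 1.70, 1.69 and 3.82 in WT. MT1H was at 0.681, 0.387 and 0.163 scaled TPM in HBBko and 1.38, 1.29 and 1.88 in WT at 5 d. In undifferentiated cells MT1E was at or below 0.159 scaled TPM in HBBko and 0.361 in WT. MT1H was at 0.106, 0 and 0.159 scaled TPM in undifferentiated HBBko libraries and 0.0803, 0.503 and 2.61 in undifferentiated WT libraries, of which replicate 3 held 8.94 times the mean of the others. MT1F was at 0.0446, 0.0906 and 0 scaled TPM in undifferentiated HBBko libraries and 0.118, 0.289 and 0.578 in undifferentiated WT libraries. The lines overlapped for MT1E and MT1H but not for MT1F. Across the 18 libraries the 15 pairs among the 6 genes had Pearson correlations of 0.807 (MT1X and MT2A) to 0.988 (MT1F and MT1H) on the log2 scale, over libraries that share the 6 groups and, for the genes, some of their sequence.

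MTF1, the sensor, spanned a far narrower range than the metallothioneins. It was at 5.26, 4.36 and 3.30 scaled TPM in undifferentiated HBBko libraries and 2.93, 3.71 and 2.94 in undifferentiated WT libraries. At 48 h it was at 4.18, 4.59 and 4.83 scaled TPM in HBBko and 5.02, 4.02 and 5.14 in WT. At 5 d it was at 5.76, 6.02 and 7.16 scaled TPM in HBBko and 5.67, 5.51 and 6.44 in WT. The lines overlapped at every stage, and the log2 fold changes of HBBko over WT were 0.33 ± 0.13, -0.04 ± 0.13 and 0.09 ± 0.13 from undifferentiated cells to 5 d. In order of mean, the groups were undifferentiated WT (3.19 ± 0.447), undifferentiated HBBko (4.31 ± 0.980), HBBko at 48 h (4.54 ± 0.328), WT at 48 h (4.72 ± 0.617), WT at 5 d (5.87 ± 0.495) and HBBko at 5 d (6.31 ± 0.749), and of these neighbours only WT at 48 h and WT at 5 d did not overlap. Over the 18 libraries the Pearson correlation of MTF1 with the metallothionein sum was -0.14.

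SLC30A1, the exporter, was higher at each later stage in both lines and did not peak at 48 h. It was at 1.36, 0.809 and 1.52 scaled TPM in undifferentiated HBBko libraries and 3.74, 4.73 and 5.89 in undifferentiated WT libraries. At 48 h it was at 14.64, 14.2 and 13.7 scaled TPM in HBBko and 15.6, 14.65 and 18.5 in WT. At 5 d it was at 64.3, 59.3 and 58.9 scaled TPM in HBBko and 48.0, 49.1 and 43.4 in WT. HBBko lay below WT in undifferentiated cells and above it at 5 d, and at 48 h its highest HBBko library was just under the lowest WT library. The log2 fold changes of HBBko over WT were -1.37 ± 0.13, -0.18 ± 0.13 and 0.37 ± 0.13 from undifferentiated cells to 5 d. Without replicate 3 of undifferentiated WT the mean ratio of HBBko to WT was 0.291, against 0.257 with it. At 5 d HBBko cells thus had more SLC30A1 than WT cells and a smaller metallothionein sum. Its Pearson correlation with the metallothionein sum over the 18 libraries was 0.13.

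**Figure D4:**
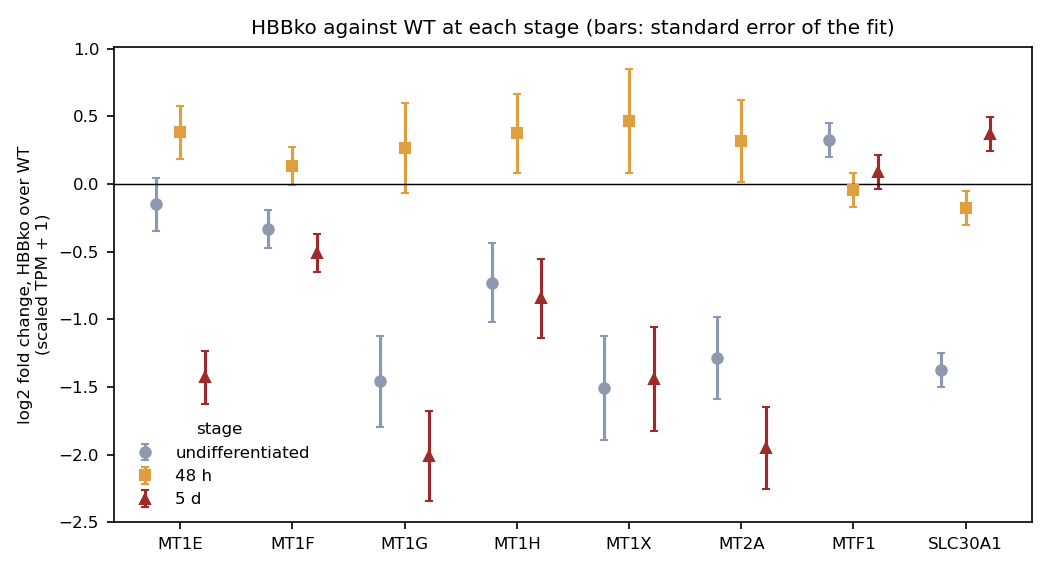
Log2 fold change of HBBko over WT (y axis, scaled TPM + 1) for each of the 8 genes (x axis) at the 3 stages, with bars for the standard error of the fit over all 18 libraries. The metallothioneins lie below 0 in undifferentiated cells and at 5 d and above 0 at 48 h, MTF1 stays within 0.33 of 0, and SLC30A1 runs from -1.37 in undifferentiated cells to 0.37 at 5 d.

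In the fit of all tested genes (limma, adjusted p under 0.05), 1 of the 8 genes was called higher and 4 lower in undifferentiated HBBko cells, beside 43.3% of all tested genes called, 20.9% higher and 22.3% lower. At 48 h none was called, beside 18.7% of all, 9.52% higher and 9.21% lower. At 5 d 1 was called higher and 6 lower, beside 51.3% of all, 26.5% higher and 24.8% lower. The call for MTF1 in undifferentiated cells was lost with the replicate number as a block, and also without HBBko replicate 1 or 2 or WT replicate 1 or 3 of that stage. The call for SLC30A1 at 5 d was lost without HBBko replicate 1 or WT replicate 3 of that stage. For 48 h against undifferentiated cells, 7 of the 8 were called higher in HBBko, beside 65.2% of all tested genes called, 25.1% higher and 40.1% lower. In WT all 8 were called higher, beside 64.9% of all, 23.5% higher and 41.4% lower. For 5 d against 48 h, 2 were called higher and 6 lower in HBBko, beside 79.7% of all, 30.2% higher and 49.5% lower. In WT 1 was called higher and 6 lower, beside 80.2% of all, 30.8% higher and 49.5% lower. The difference between the HBBko over WT changes at 48 h and in undifferentiated cells was called positive for 4 of the 8, beside 13.2% of all, 7.67% higher and 5.51% lower. The difference between those at 5 d and 48 h was called positive for SLC30A1 and negative for the 6 metallothioneins, beside 24.6% of all, 11.5% higher and 13.1% lower. Because these contrasts were known when the genes were listed, nothing is read from these counts. The median log2 fold change of all tested genes was between -0.01 and 0.02 in the comparisons of HBBko with WT, and between -0.20 and -0.09 in the comparisons over time.

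The authors' deposited table for 48 h gave MT1X a log2 fold change of 0.46 with a standard error of 0.15 (q = 0.00789). It gave MT2A 0.31 with a standard error of 0.09 (q = 0.00154). The other metallothioneins were not under 0.05 there, with q = 0.0831 for MT1G, 0.132 for MT1H, 0.216 for MT1E and 0.569 for MT1F. Nor was SLC30A1 (q = 0.186). The present fit gave MT1X 0.47 ± 0.39 and MT2A 0.32 ± 0.30, with standard errors pooled over all 6 groups, and called neither. For undifferentiated cells, the authors' deposited table gave MT1G -1.84 (q = 0.0335), MT1X -1.72 (q = 0.135) and MT2A -1.63 (q = 0.0563), so that only MT1G of these 3 was under 0.05 there, and it does not list MT1E, MT1F or MT1H. For 5 d, the authors' deposited table gave MT1E -3.40 (q = 1.64e-07), MT1G -2.50 (q = 4.56e-09) and MT2A -2.19 (q = 8.81e-13). It also gave MT1X -1.86 (q = 5.87e-15) and MT1H -2.005 (q = 0.00235), and it does not list MT1F. For SLC30A1 the authors' values were -1.995 (q = 2.68e-07) in undifferentiated cells and 0.38 (q = 1.27e-08) at 5 d.

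Of 13 other metallothionein genes and pseudogenes in the table, 4 passed the filter. Of these, MT1A, MT1B and MT1DP passed through their 48 h libraries, so their stages are not tested against each other. At 48 h MT1B, a type 1 gene of the same cluster, was at 3.31 ± 1.00 scaled TPM in HBBko and 1.87 ± 0.829 in WT, with overlap. It passed the filter only with the HBBko libraries of 48 h, so for MT1B the lines are not tested against each other either. Its log2 fold change of HBBko over WT at that stage was 0.61 ± 0.18. The authors' deposited table gave MT1B 0.87 with a standard error of 0.49 at 48 h (q = 0.183). MT1A, also a type 1 gene, was at 2.78 ± 0.701 scaled TPM in HBBko and 1.73 ± 0.985 in WT at 48 h. It was listed at 0 in all undifferentiated libraries of both lines. Reads of the members can be counted to these genes.

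The SLC30 family holds further transporters, most of them zinc exporters. Of 5 tested, 1 was higher and 1 lower in undifferentiated HBBko cells, 1 higher and 1 lower at 48 h, and 3 higher and 1 lower at 5 d (limma, adjusted p under 0.05), with medians of -0.10, 0.16 and 0.17. Of all tested genes, 43.3% were called in undifferentiated cells, 18.7% at 48 h and 51.3% at 5 d, and nothing particular to the family is read from 5 genes. Each of these counts moved by at most 1 when any single library was left out. SLC30A10, known mainly as a manganese exporter, was at 14.9 ± 1.73 scaled TPM in HBBko and 6.05 ± 0.679 in WT at 5 d, which is a log2 difference of 1.18 ± 0.17 (limma adjusted p = 1.86e-05). It was also higher at 5 d than at 48 h in both lines, by 2.12 ± 0.17 in HBBko (limma adjusted p = 2.19e-09) and 1.20 ± 0.17 in WT (limma adjusted p = 3.41e-06). SLC30A6, which encodes a transporter of the Golgi membrane, was lower in HBBko at all 3 stages, with a call at 48 h that was lost without any 1 library of that stage. It was at 11.6 ± 0.507 scaled TPM in HBBko and 17.5 ± 1.62 in WT in undifferentiated cells (log2 fold change -0.55 ± 0.07, limma adjusted p = 1.83e-05). SLC30A5, whose protein loads zinc into secretory enzymes, was lower at each later stage, at 47.6 ± 1.07, 24.9 ± 1.27 and 13.8 ± 1.29 scaled TPM in HBBko and 45.1 ± 1.08, 21.4 ± 1.24 and 12.1 ± 0.511 in WT.

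The zinc importers of the SLC39 family, which bring zinc into the cytosol, were lower more often than higher at later stages. The same held for the tested genes as a whole. Of 11 importers tested, 7 were lower and 1 higher at 48 h against undifferentiated cells in HBBko, and 9 lower and 2 higher in WT (limma, adjusted p under 0.05). Of all tested genes, 40.1% were lower and 25.1% higher in HBBko, and 41.4% lower and 23.5% higher in WT. At 5 d against 48 h, 8 importers were lower and 2 higher in HBBko, and 8 lower and none higher in WT. Of all tested genes, 49.5% were then lower in each line, with 30.2% higher in HBBko and 30.8% in WT. SLC39A14, an importer of zinc and iron, was at 25.0 ± 2.86, 4.26 ± 0.426 and 0.758 ± 0.248 scaled TPM from undifferentiated cells to 5 d in HBBko, and at 15.1 ± 1.85, 1.57 ± 0.230 and 0.274 ± 0.0841 in WT. It was higher in HBBko at each stage, with log2 fold changes of 0.69 ± 0.12, 1.03 ± 0.12 and 0.46 ± 0.12 (limma adjusted p = 0.000199, 1.34e-05 and 0.00373). SLC39A4, the importer needed for intestinal zinc uptake, was at 17.2 ± 0.861 scaled TPM in HBBko and 20.5 ± 2.25 in WT at 5 d, against 64.9 ± 1.62 in HBBko and 66.9 ± 1.94 in WT at 48 h. Between the lines, 4 importers were higher and 3 lower in undifferentiated HBBko cells, 4 higher and none lower at 48 h, and 5 higher and 2 lower at 5 d, with medians of 0.11, 0.02 and 0.13 and beside the shares of all genes given above. Without HBBko replicate 2 or 3 or WT replicate 3 of the 48 h groups, 2 importers were higher at 48 h, and without HBBko replicate 1 of 5 d no importer was lower at that stage.

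**Figure D5:**
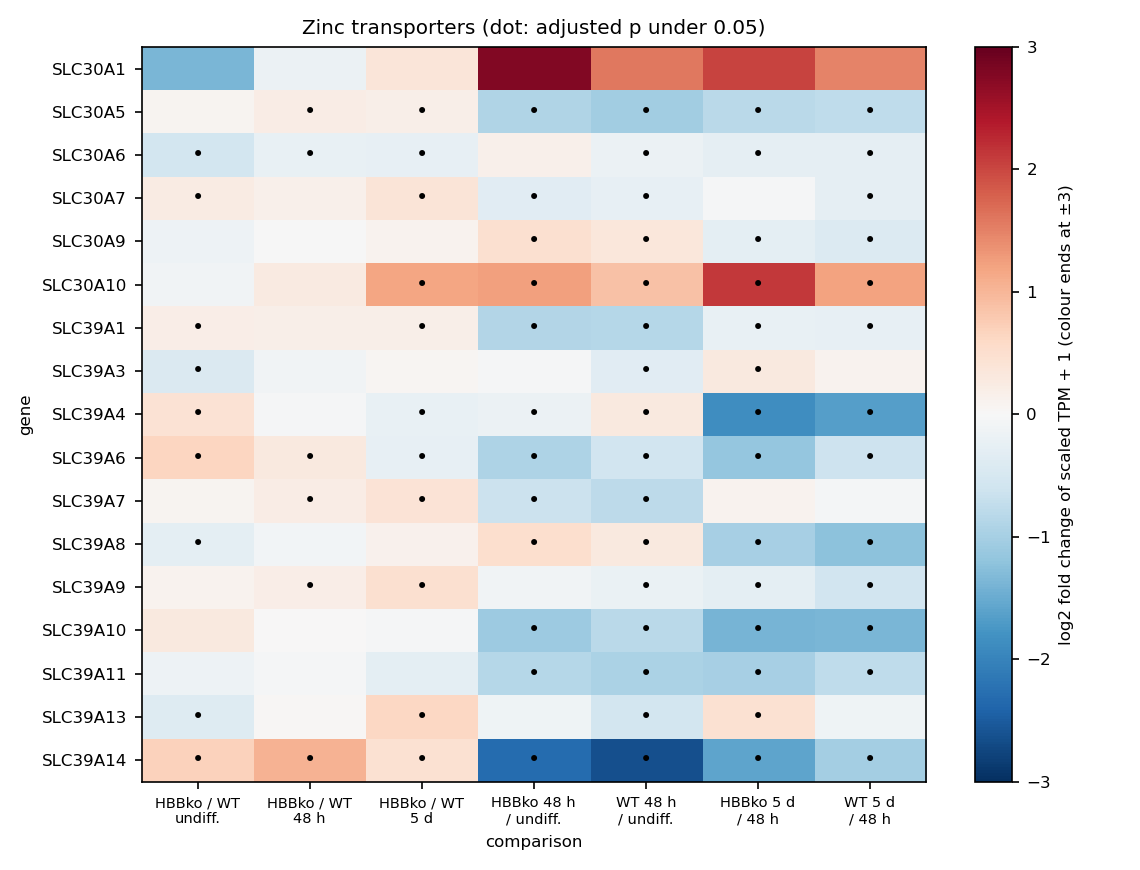
Log2 fold change (colour, scaled TPM + 1) of SLC30A1 and the 16 other tested zinc transporters (rows) in 7 comparisons (columns), with a dot where limma's adjusted p was under 0.05. SLC30A1 carries no dots because its values were known when it was listed. It is red in all 4 comparisons over time, while SLC39A14 is blue in all 4 and red in the 3 comparisons of HBBko with WT.

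Of 13 tested genes that include the glucocorticoid receptor and genes known to answer glucocorticoids, which can also induce metallothioneins, 7 were lower in undifferentiated HBBko cells, 5 at 48 h and 9 at 5 d, and none was higher (limma, adjusted p under 0.05). The others, 6, 8 and 4 at the 3 stages, were not called, and 22.3%, 9.21% and 24.8% of all tested genes were lower. The list's medians were -0.25, -0.14 and -0.81. FKBP5, a co-chaperone of the receptor named here after its values were seen, was at 87.2 ± 0.240 scaled TPM in HBBko and 81.5 ± 4.55 in WT at 48 h. At 48 h 3 were lower without any 1 of the HBBko libraries and 2 without WT replicate 3. Up to 2 were higher when libraries were rescaled to equal sums, and 1 in undifferentiated cells with the replicate number as a block, with median-of-ratios scaling, with globins removed or without WT replicate 1. TSC22D3, which encodes the glucocorticoid-induced leucine zipper protein, was at 32.9 ± 2.46 scaled TPM in undifferentiated HBBko and 102 ± 32.3 in undifferentiated WT. At 48 h it was at 1.86 ± 0.139 scaled TPM in HBBko and 5.86 ± 1.57 in WT, and at 5 d at 17.3 ± 1.51 in HBBko and 63.5 ± 3.08 in WT. Its log2 fold changes were -1.57 ± 0.16, -1.24 ± 0.16 and -1.82 ± 0.16 (limma adjusted p = 2.06e-06, 6.38e-05 and 1.17e-07). Unlike the metallothionein sum, TSC22D3 was lowest at 48 h in both lines. KLF9, a transcription factor gene induced by the glucocorticoid receptor, was at 3.29 ± 0.307 scaled TPM in undifferentiated HBBko and 7.997 ± 1.60 in undifferentiated WT (log2 fold change -1.06 ± 0.11, limma adjusted p = 2.87e-06). Whether this list has a part in the metallothionein values was not tested.

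Genes of the metal and proteotoxic stress response differed in both directions. Of 13 tested, 8 were higher and 1 lower in undifferentiated HBBko cells, 4 higher and 1 lower at 48 h, and 4 higher and 5 lower at 5 d (limma, adjusted p under 0.05), with medians of 0.35, 0.13 and -0.15. Of all tested genes, 20.9% were higher and 22.3% lower in undifferentiated cells, 9.52% and 9.21% at 48 h, and 26.5% and 24.8% at 5 d. At 48 h 8 were higher when libraries were rescaled to equal sums. HMOX1, the heme-degrading enzyme that metals and heme induce, was at 14.5 ± 1.14 scaled TPM in HBBko and 5.64 ± 0.448 in WT at 48 h, which is a log2 difference of 1.22 ± 0.15 (limma adjusted p = 4.05e-05). At 5 d HMOX1 was at 13.1 ± 2.43 scaled TPM in HBBko and 98.1 ± 17.2 in WT, which is a log2 difference of -2.81 ± 0.15 (limma adjusted p = 4.42e-10). In undifferentiated cells HMOX1 was at 5.24 ± 0.645 scaled TPM in HBBko and 3.77 ± 1.02 in WT, where the lines overlapped. BAG3, a co-chaperone of HSP70, was higher in HBBko at 5 d, at 25.4 ± 2.31 scaled TPM in HBBko and 9.36 ± 0.543 in WT (log2 fold change 1.35 ± 0.07, limma adjusted p = 5.12e-10). Of 13 copper handling genes, 4 were higher and 1 lower in undifferentiated HBBko cells, 3 higher and 1 lower at 48 h, and 4 higher and 2 lower at 5 d, the last becoming 9 higher and none lower with libraries rescaled to equal sums. The shares called in undifferentiated cells and at 5 d are near the 43.3% and 51.3% of all tested genes. These counts moved by at most 2 when single libraries were left out.

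Of 5 tested zinc enzymes that are abundant in red cells, 1 was higher and 2 lower in undifferentiated HBBko cells (limma, adjusted p under 0.05). At 48 h none was higher and 2 lower, and at 5 d 1 was higher and 1 lower. Of all tested genes, 43.3% were called in undifferentiated cells, 18.7% at 48 h and 51.3% at 5 d. Nothing particular to these enzymes is read from 5 genes. CA3, a carbonic anhydrase, was lower in HBBko at all 3 stages, at 15.8 ± 2.62 scaled TPM in HBBko and 74.1 ± 9.83 in WT at 5 d (log2 fold change -2.16 ± 0.16, limma adjusted p = 1.44e-08). ALAD, the zinc enzyme of the second step of heme synthesis, was at 63.8 ± 4.59, 159.8 ± 3.67 and 464 ± 33.7 scaled TPM from undifferentiated cells to 5 d in HBBko and at 118 ± 20.4, 213 ± 20.1 and 367 ± 1.97 in WT. It was lower in HBBko in undifferentiated cells (-0.86 ± 0.09 log2, limma adjusted p = 2.78e-06) and higher at 5 d (0.33 ± 0.09, limma adjusted p = 0.00646), the order also seen for SLC30A1. Of the 6 tested neighbours of the metallothionein cluster on chromosome 16, 4 were lower and 1 higher in undifferentiated HBBko cells, 2 lower and 1 higher at 48 h, and 2 lower and 2 higher at 5 d. Each of these counts moved by at most 1 with single libraries left out. Beside the same shares of all tested genes, nothing particular to the neighbours is read from 6 genes. HERPUD1, an endoplasmic reticulum stress gene, was lower in HBBko at all 3 stages, at 64.5 ± 3.51 scaled TPM in HBBko and 106 ± 3.29 in WT at 5 d.

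Among the genes whose log2 levels were most like the metallothionein sum over the 18 libraries, by Pearson correlation, were TPGS2 (0.950), HSDL2 (0.941), AC004967.1 (0.940) and NMU (0.939). A correlation does not measure the size of a change. From undifferentiated HBBko to HBBko at 48 h the mean sum went from 10.6 to 278 scaled TPM. TPGS2 went from 205.5 to 314, HSDL2 from 18.8 to 35.6 and AC004967.1 from 4.40 to 7.11. NMU was low, with a highest group mean of 1.025 in WT at 48 h. Those most like SLC30A1, a search added after the values were seen, were PIGQ (0.992), HMGB2 (0.990), GYPE (0.989), PRC1 (0.988) and ALAD (0.988). These libraries fall into 6 groups, so the correlations mainly compare group means.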

How the data were processed

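Per the labels' protocols, total RNA from HUDEP-2 cells was made into TruSeq libraries. Tools and build, per the submitters' processing notes, were kallisto, sleuth and hg38, while versions and the transcript annotation are not given in the sources used here. The authors deposited a signal per gene symbol, named TPM, whose library sums vary, so it had also been scaled in a step not stated (scaled TPM). For each stage the authors also deposited log2 fold changes, standard errors and, per the file headers, a p-value and q-value per gene in sleuth's layout. Table columns name the lines thal and wen, read as HBBko and WT on the names' wording only. The thal libraries had less HBB than the wen ones at every stage.

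The 12005 genes that reached 1 scaled TPM in 3 or more libraries were fitted as log2(scaled TPM + 1) with limma 3.58.1 in R 4.3.3 (lmFit, then eBayes with trend), 1 mean per group over all 18 libraries, leaving 12 residual degrees of freedom. Tests were two-sided with Benjamini-Hochberg adjustment over all tested genes, in 9 comparisons. The script was tested on simulated data. The plan assumed plain TPM, and the test was kept. The depth is unknown, so precision comes from the spread between libraries alone. Same-numbered HBBko and WT libraries deviated together from their group means in undifferentiated cells (correlations across genes of 0.173, 0.121 and 0.151) and at 5 d (0.133, 0.18 and 0.131), but not at 48 h (-0.03, -0.011 and 0.022). A fit with the replicate number as a block was an alternative, beside other pseudocounts, filters and scalings, a fit of only the groups compared, and leaving out each library.

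The members and the gene lists were chosen with earlier results of these data known. Genes of a list were named where they passed the threshold, up to 4 by size of the change per list and comparison. Of the genes most like the metallothionein sum, 1 is not reported here. Sequence identity, shared 31-base words and promoter motifs were computed with Python 3.11.15 and Biopython 1.88. All 8 members were in the table. MT1E, MT1F and MT1G had no promoter entry that was used here.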

Additional observations from a re-analysis of the deposited data

Results flagged for a closer look

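Several of the 8 genes lay on one side of WT in every HBBko library at 1 stage and on the other side at another, a difference not tested here since the genes were listed with these values known. The mean metallothionein sum in HBBko over that in WT was 0.282 in undifferentiated cells, 1.26 at 48 h and 0.214 at 5 d. For MT1G the ratio was 0.237 in undifferentiated cells, 1.20 at 48 h and 0.173 at 5 d. For MT1X it was 0.312 in undifferentiated cells, 1.39 at 48 h and 0.273 at 5 d. For MT2A it was 0.279 in undifferentiated cells, 1.26 at 48 h and 0.228 at 5 d. MT1H had 1.29 at 48 h and 0.271 at 5 d, and its undifferentiated libraries overlapped. SLC30A1 went the other way between 48 h and 5 d, with 0.257 in undifferentiated cells, 0.875 at 48 h and 1.30 at 5 d.

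For 7 other zinc transporters the HBBko over WT change differed between stages by the interaction term of the limma fit. Tested were 5 other genes of the SLC30 family and 11 of the SLC39 family. Of all tested genes, 13.2% were called for 48 h against undifferentiated cells and 24.6% for 5 d against 48 h. Nothing particular to zinc transporters is read from these counts. SLC39A4 differed by -0.47 log2 (adjusted p = 0.00743) and SLC30A6 by 0.33 (adjusted p = 0.0413) at 48 h against undifferentiated cells. At 5 d against 48 h the differences were 0.92 for SLC30A10 (limma adjusted p = 0.00897), 0.60 for SLC39A13 (0.0176), -0.58 for SLC39A14 (0.0177), -0.53 for SLC39A6 (0.00456) and 0.28 for SLC39A9 (0.0187).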

How the results depend on the processing

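Under all alternatives, 1038 of 1167 values of the 8 genes moved by no more than the spread between replicates, 128 moved further and 1 reversed. Other filters, the fit of only the groups compared and the replicate block cannot change a log2 fold change here. Values under those settings were the same by construction, so the tally overstates how much was checked. It also does not cover whether a gene was called. The reversed value was MTF1 in WT at 5 d against 48 h, -0.27 log2 with libraries rescaled to equal sums. That rescaling moved the median of all tested genes to 0.14 at 48 h and 0.27 at 5 d for HBBko over WT, with 84.2% and 86.1% of calls higher, against 50.8% and 51.7% in the fit as reported. It also moved the medians over time, to -0.56 in HBBko and -0.70 in WT at 5 d against 48 h.

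Genes called in HBBko against WT numbered 5197 in undifferentiated cells and 2249 at 48 h. With only the groups compared, they were 2882 and 4275, and with equal sums 4186 at 48 h. Leaving out 1 library gave 1173 to 1755 at 48 h. The difference between 48 h and undifferentiated cells was called for 1582 genes, or 800 to 2448 with 1 library left out. Zinc transporters called, SLC30A1 included, were 6 at 48 h and 12 at 5 d. They were 3 at 48 h with globins removed, and 2 to 4 at 48 h and 7 to 12 at 5 d with 1 library left out.

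On the log2 scale the metallothionein sum of HBBko over WT was -2.11 at 5 d, -1.75 with a pseudocount of 5 and -1.77 with equal sums. In HBBko at 5 d against 48 h it was -4.81, -4.34 with a pseudocount of 5, -5.24 with equal sums and -4.28 over every metallothionein gene. In WT it was -2.36, -2.99 with equal sums and -2.10 over every metallothionein gene. The difference between 5 d and 48 h was -2.45, -2.08 with a pseudocount of 5 and -2.18 over every metallothionein gene. The cause of these shifts was not tested. With the replicate number as a block, 5390 genes were called in undifferentiated cells, 2494 at 48 h and 6313 at 5 d. The sum could not change under the block, because every group holds the same replicate numbers. Without read counts, the depth limit of low genes such as MT1F cannot be given.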
